A study of Homo sapiens with 8 samples.

Results

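The HOX cluster genes are the 39 genes whose symbols consist of HOX, a cluster letter from A to D and a paralog number, out of 23228 genes listed by symbol in the count files. The HOXA cluster held 11 of them, HOXB 10, HOXC 9 and HOXD 9. By the GENCODE annotation on GRCh37, the build that hg19 shares, the genes span chr7:27139973-27239710 (HOXA, from HOXA2 to HOXA13), chr17:46605888-46806112 (HOXB), chr12:54332615-54449814 (HOXC) and chr2:176957449-177055635 (HOXD). Their transcripts were counted by RNA-seq in 8 libraries of BT-549, an established mesenchymal triple-negative breast cancer (TNBC) cell line, with 2 libraries in each of 4 groups. Cells were treated for 24 h with vehicle (DMSO), with EC359 at 100 nM, with vorinostat at 10 µM, or with both drugs at these doses. EC359 is an inhibitor of the leukemia inhibitory factor receptor (LIFR), and vorinostat is a histone deacetylase inhibitor (HDACi). The design asked how each drug and their combination altered the transcriptome. All groups came from a single cell line. The labels only number the libraries of a group, and the study speaks of biological replicates for its in vitro assays in general but not for these libraries, so the p-values measure the spread between these libraries, which may be technical.

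HOX genes encode homeodomain transcription factors that assign position along the body axis in the embryo. Each cluster lies on its own chromosome, and the genes carry numbers that follow their order along it. Genes of low number (anterior) are expressed nearer the head and genes of high number (posterior) nearer the tail, and genes of the same number in different clusters are paralogs. HOX proteins bind DNA together with cofactors of the PBX, MEIS and PKNOX families. Polycomb complexes hold HOX clusters silent, and MLL complexes and histone acetylation accompany their transcription. Adult mammary tissue and breast tumors retain expression of part of the clusters.

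The libraries held between 19069450 and 24759041 counts on genes, of which 1506 to 4003 fell on HOX genes. Counts were expressed as CPM, which scales them to the library total, with TMM correction factors between 0.955 and 1.03. Comparisons between genes use RPKM, which divides the CPM by the length in kilobases of all annotated exons of the gene. The 7 mesenchymal markers examined (such as VIM and FN1) were detected in every group, with a summed 9400 to 16600 CPM, whereas ESR1 and PGR had no count with vehicle. The summed CPM of 5 epithelial markers was 2.97 to 4.02 with vehicle, 7.30 to 8.17 with EC359, 13.8 to 25 with vorinostat and 3.17 to 25.4 in the combination group. The 5 genes of the luminal and hormone receptor list summed to 97.1 to 103 CPM with vehicle, nearly all from ERBB2, to 78.6 to 81.3 with EC359, to 18.0 to 19.8 with vorinostat and to 17.1 to 18.0 with the combination. The fall of this sum was that of ERBB2, from 96.1 and 102 CPM with vehicle to 15.8 and 14.8 with vorinostat. The median log2 fold change of the 4 genes tested was 1.79 with vorinostat and 2.24 with the combination, beside 0.03 and 0.07 over all genes. The part of either list in the HOX results was not tested. The 4 immune markers summed to at most 2.15 CPM and the 3 endothelial markers to at most 0.72 CPM in any library.

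Of the 39 HOX genes, 24 passed the filter on low counts and were tested, namely 5 of HOXA, 9 of HOXB, 8 of HOXC and 2 of HOXD. Calls required an adjusted p below 0.01 together with a log2 fold change beyond 1 in either direction (edgeR's quasi-likelihood test, Benjamini-Hochberg adjustment over 13694 genes). With vorinostat against vehicle, 8 HOX genes were higher and 7 were lower. This was 33.3% and 29.2% of those tested, beside 16.8% higher and 13.3% lower among all genes tested. The vorinostat and vehicle libraries did not overlap in 22 of the 24, HOXA5 and HOXC5 being the exceptions, beside 88.9% of all genes tested. EC359 alone called no HOX gene, beside 3.67% of all genes. Because HOXD8 and some other members of low count passed the filter through the groups in which they were high, these shares are descriptions.

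**Figure D1:**
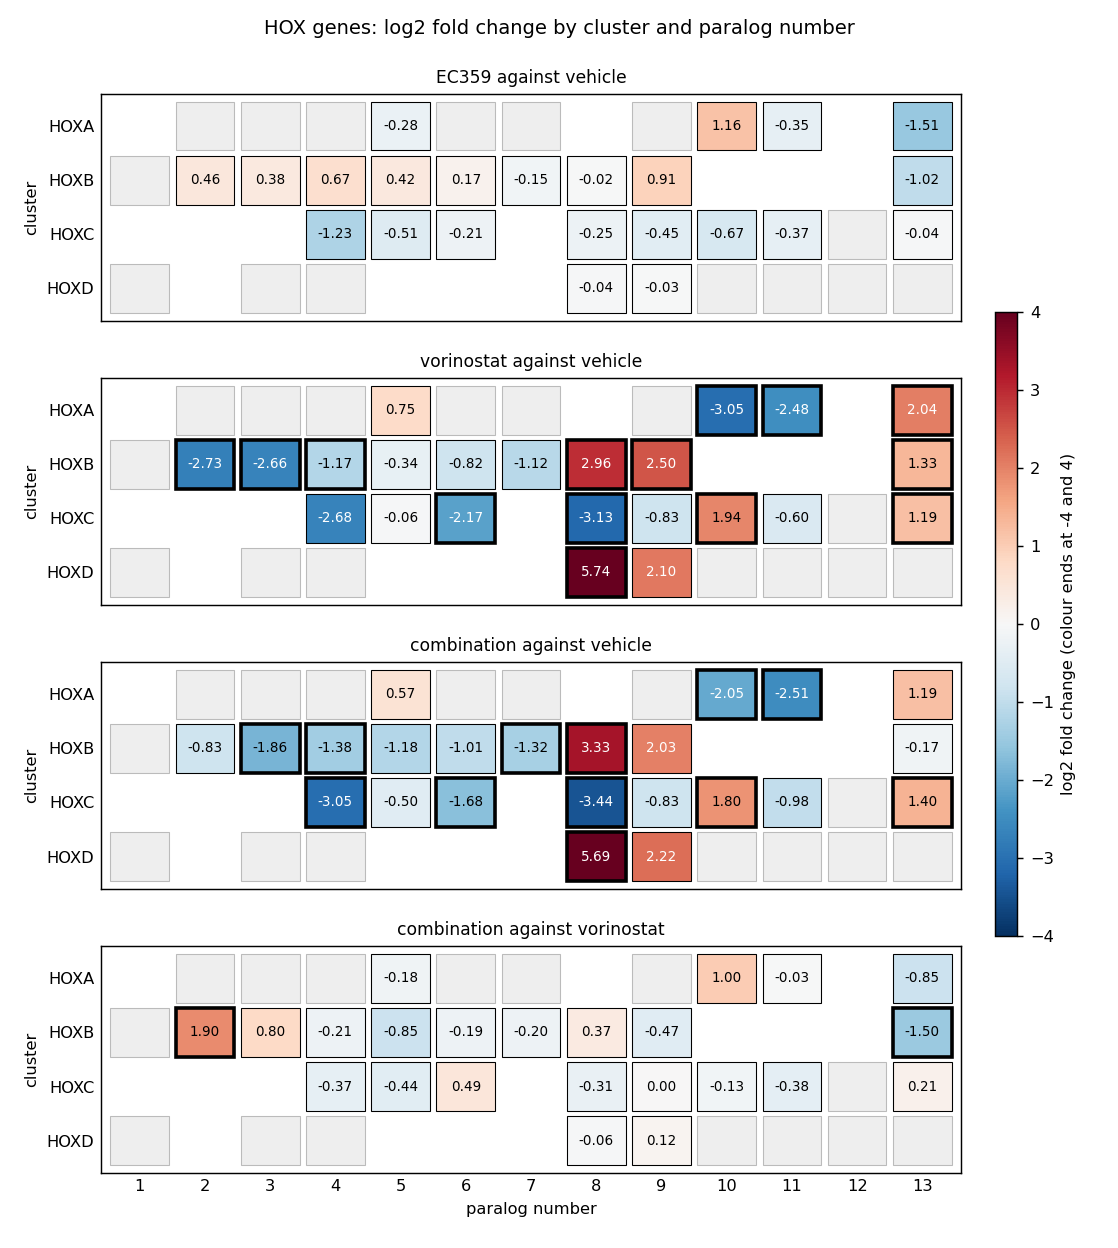
Log2 fold change of HOX genes (colour and printed value), by cluster (rows) and paralog number (columns), in 4 comparisons. Thick frames mark called genes (adjusted p below 0.01, log2 fold change beyond 1 in either direction), grey boxes mark genes not tested, and blank places show no gene. The vorinostat panel shows HOXB2, HOXB3 and HOXB4 lower and HOXB8, HOXB9 and HOXB13 higher within the same cluster, and the HOXD8 values rest on 1 count in the vehicle libraries.

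With vehicle, the HOX transcripts of BT-549 came mostly from the HOXB and HOXC clusters (48.8% and 44.9% of HOX CPM). Genes of paralog numbers 4 to 8 held 55.3% and those of numbers 1 to 3 held 26.2%. Per exon length, HOXB2 was highest at 9.36 ± 1.14 RPKM (SD, n = 2), followed by HOXC8 at 8.51 ± 1.27, HOXB4 at 8.10 ± 0.55, HOXC6 at 6.49 ± 0.99 and HOXB7 at 6.01 ± 0.15. The libraries of each of these genes overlapped with those of the next in the order, except that the HOXB4 libraries (7.71 and 8.49 RPKM) lay above those of HOXC6 (7.19 and 5.80 RPKM). HOXC9 followed at 3.23 ± 0.64 RPKM, below every library of the genes above it. No HOXA gene was above the 1.43 ± 0.01 RPKM of HOXA11, and no HOXD gene was above the 0.0502 RPKM of HOXD9. With vorinostat the order changed. HOXC10 was highest at 7.20 ± 0.37 RPKM, followed by HOXB4 at 3.61 ± 0.12, HOXC13 at 3.53 ± 0.50, HOXB7 at 2.74 ± 1.19 and HOXB13 at 2.67 ± 0.01, whereas HOXC8 was at 0.969 ± 0.05 RPKM. The libraries of HOXB4, HOXC13 and HOXB7 overlapped. With the combination HOXC10 was again highest (6.58 ± 0.63 RPKM), HOXB2 came next (5.27 ± 0.17 RPKM), and no HOXB2 library reached the lower HOXC10 library at 6.13 RPKM. These orders and overlaps between genes hold for the length of all annotated exons and may differ with another length. The longest transcript of HOXB2 has 1682 bases against 2456 for all its exons, and that of HOXC10 has 1976 against 2371.

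**Figure D2:**
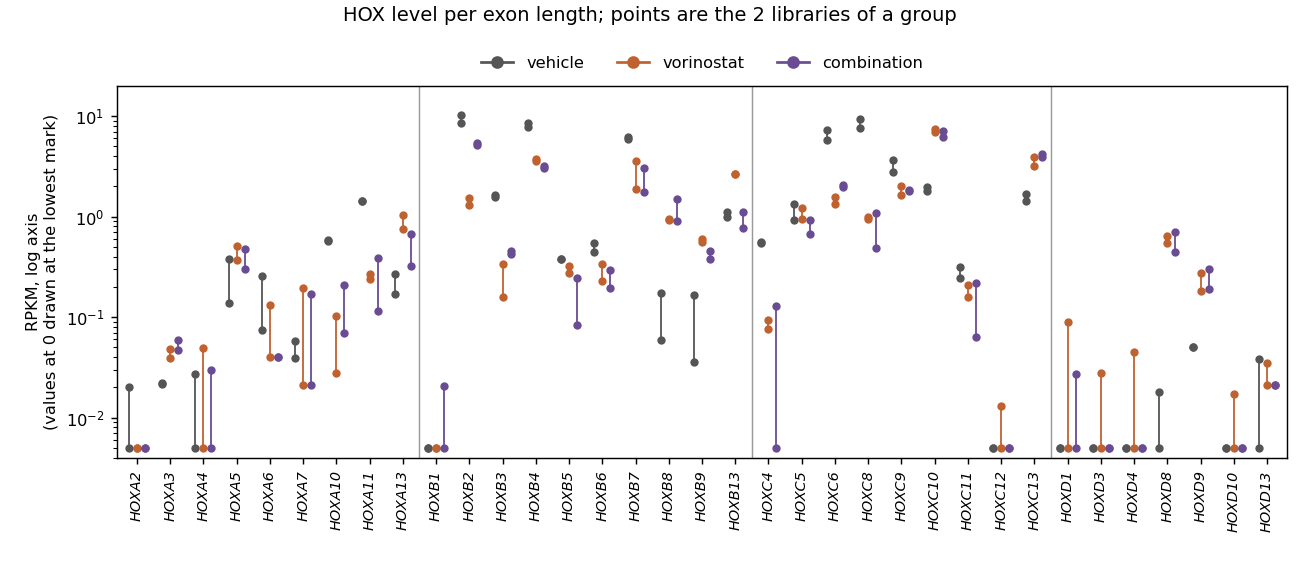
RPKM (log axis) of HOX genes with at least 1 count, ordered by cluster and paralog number, in the vehicle, vorinostat and combination libraries, with a line joining the 2 libraries of a group. HOXC8 stood at 7.61 and 9.41 RPKM with vehicle and at 0.936 and 1.00 RPKM with vorinostat, and HOXC10 rose from 1.79 and 1.97 to 6.94 and 7.46 RPKM.

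Among the anterior genes (paralog numbers 1 to 3), HOXB2 and HOXB3 were lower with vorinostat. HOXB2, which patterns the hindbrain, had 25 and 21.0 CPM with vehicle, 36.6 and 26.6 with EC359, 3.75 and 3.19 with vorinostat, and 12.6 and 13.2 with the combination. The vorinostat libraries were the lowest, the combination libraries lay between them and vehicle, and no group overlapped with another. The log2 fold change against vehicle was -2.73 ± 0.20 (SE) with vorinostat (adjusted p = 4.7e-06, edgeR's quasi-likelihood test, as for every adjusted p below) and -0.83 ± 0.18 with the combination (adjusted p = 0.0029), the latter below the fold required for a call. HOXB3, its neighbour on chromosome 17, had 12.2 and 11.7 CPM with vehicle, 17.5 and 13.5 with EC359, 1.18 and 2.51 with vorinostat, and 3.38 and 3.17 with the combination. Again every library with vorinostat lay below every library without it. HOXB3 fell by 2.66 ± 0.29 on the log2 scale with vorinostat (adjusted p = 4.6e-05) and had a log2 fold change of -1.86 ± 0.28 with the combination (adjusted p = 0.00026).

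Among the central genes (4 to 8), HOXC6 and HOXC8 showed the largest falls in CPM of the HOXC cluster. HOXC8, a gene of the thoracic region, had 22.8 and 18.4 CPM with vehicle, 22.1 and 12.5 with EC359, 2.26 and 2.42 with vorinostat, and 1.18 and 2.60 with the combination. All libraries with vorinostat were under 3 CPM, and all without it were over 12 CPM. HOXC8 fell by 3.13 ± 0.36 on the log2 scale with vorinostat (adjusted p = 6e-05) and its log2 fold change was -3.44 ± 0.37 with the combination (adjusted p = 3.5e-05). HOXC6, a gene expressed in the mammary gland, had 24.9 and 20.0 CPM with vehicle, 24.5 and 14.2 with EC359, 5.35 and 4.63 with vorinostat, and 7.16 and 6.84 with the combination. The vorinostat and combination libraries were well below the others. Its log2 fold change was -2.17 ± 0.26 with vorinostat (adjusted p = 8.3e-05) and -1.68 ± 0.25 with the combination (adjusted p = 0.00031). The annotations of HOXC4 and HOXC6 share 484 exon bases on the same strand (14% of HOXC6 and 17.5% of HOXC4). Those of HOXB3 and HOXB6 share 433 (5.83% of HOXB3 and 16.6% of HOXB6). Because the counting mode is not given, reads on shared bases may be missing from the counts of both genes.

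HOXB4, known for its role in blood stem cells, had 15.4 and 17 CPM with vehicle, 28.8 and 22.8 with EC359, 7.41 and 7.06 with vorinostat, and 6.04 and 6.43 with the combination. The 4 groups did not overlap. It fell by 1.17 ± 0.16 on the log2 scale with vorinostat (adjusted p = 0.0002) and had a log2 fold change of -1.38 ± 0.16 with the combination (adjusted p = 6.6e-05). HOXB7, a gene often studied in breast cancer, had 8.97 and 9.30 CPM with vehicle, 8.08 and 8.42 with EC359, 2.88 and 5.44 with vorinostat, and 2.66 and 4.65 with the combination. The libraries with vorinostat were lower and spread widely within each group. The fold change passed the test with the combination (log2 fold change -1.32 ± 0.32, adjusted p = 0.0049) and missed it with vorinostat alone (-1.12 ± 0.31, adjusted p = 0.011). The combination call was lost without either vehicle library (adjusted p = 0.022 to 0.026) or without combination library 1 (adjusted p = 0.041). The vorinostat value passed the test without vorinostat library 2 (log2 fold change -1.67, adjusted p = 0.0051) without either EC359 library (-1.12, adjusted p = 0.0022), with no filter on low counts (-1.12, adjusted p = 0.004) and in DESeq2 (-1.10, adjusted p = 0.0037).

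HOXC4 was at 1.51 and 1.54 CPM with vehicle, 0.866 and 0.406 with EC359, 0.257 and 0.213 with vorinostat, and 0 and 0.357 with the combination. Every treated library was below both vehicle libraries. The log2 fold change was -3.05 ± 0.83 with the combination (adjusted p = 0.0091), and with vorinostat it was -2.68 ± 0.78 and missed the threshold (adjusted p = 0.014). The combination call was lost without either vehicle library (adjusted p = 0.043 to 0.046), either vorinostat library (adjusted p = 0.019 to 0.020) or combination library 1 (adjusted p = 0.026). The vorinostat value passed without either EC359 or either combination library (adjusted p = 0.0038 to 0.0062, log2 fold change -2.69).

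The other 2 central genes called, HOXB8 and HOXD8, are paralogs of HOXC8 and were higher where HOXC8 was lower. HOXB8 had 0.142 and 0.420 CPM with vehicle, 0.124 and 0.457 with EC359, 2.26 and 2.21 with vorinostat, and 2.15 and 3.63 with the combination. The 4 libraries with vorinostat were all above 2 CPM and the 4 without it below 0.5 CPM. HOXB8 rose by 2.96 ± 0.61 on the log2 scale with vorinostat (adjusted p = 0.0022) and by 3.33 ± 0.60 with the combination (adjusted p = 0.00092). The vorinostat call was lost without vehicle library 1 (adjusted p = 0.025) or either vorinostat library (adjusted p = 0.012), and the combination call without vehicle library 1 (adjusted p = 0.012).

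HOXD8 was close to the limit of detection without vorinostat. Its counts were 1 and 0 with vehicle, 1 and 0 with EC359, 33 and 34 with vorinostat, and 36 and 23 with the combination. The ratio of the depth-scaled counts to vehicle was 66.7 with vorinostat (95% interval 11.6 to 2670) and 60.7 with the combination (10.5 to 2440). These exact intervals cover counting error only. The test gave adjusted p = 0.00031 with vorinostat and 0.0003 with the combination. HOXD9, the next gene of the cluster, had 0.0944 and 0.0934 CPM with vehicle, 0.514 and 0.340 with vorinostat, and 0.563 and 0.357 with the combination, and missed the threshold (adjusted p = 0.045 and 0.034). The other 7 HOXD genes were not tested and had at most 5 counts in any library, so a difference in them was not detectable at this depth.

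**Figure D3:**
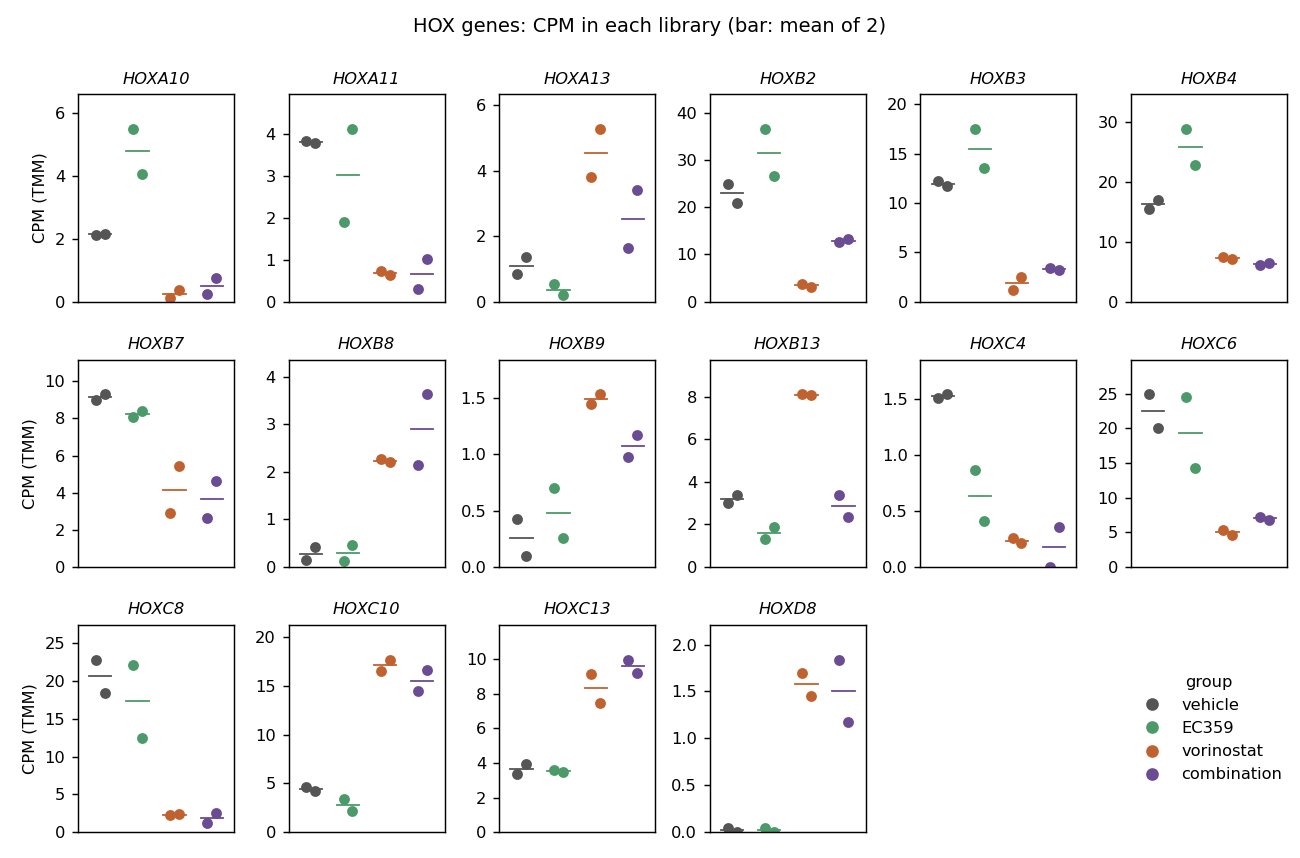
CPM in each library (points) and the mean of the 2 libraries of each group (bars) for 16 of the 17 HOX genes called in at least 1 comparison, each on its own linear axis from 0. HOXB2 shows the vorinostat libraries at 3.75 and 3.19 CPM and the combination libraries at 12.6 and 13.2, and HOXB13 shows 8.13 and 8.08 CPM with vorinostat alone against 3.38 and 2.35 with the combination.

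Among the posterior genes (9 to 13), 5 of 10 tested were higher and 2 were lower with vorinostat, beside 16.8% and 13.3% of all genes. All 3 tested genes of paralog group 13 were among the higher ones. With the combination against vehicle, 2 of the 10 were higher and 2 lower, beside 19.5% and 15.3% of all genes. Of the 3 genes of group 13, 1 was then called higher. HOXC10, a gene of the lumbar region and hindlimb, had 4.67 and 4.25 CPM with vehicle, 3.38 and 2.18 with EC359, 16.5 and 17.7 with vorinostat, and 14.5 and 16.6 with the combination. Libraries with vorinostat held over 14 CPM, and those without it held under 5 CPM. HOXC10 rose by 1.94 ± 0.20 on the log2 scale with vorinostat (adjusted p = 3.5e-05) and by 1.80 ± 0.20 with the combination (adjusted p = 4.6e-05). HOXC13, a regulator of hair keratin genes, had 3.35 and 3.92 CPM with vehicle, 3.59 and 3.50 with EC359, 9.16 and 7.48 with vorinostat, and 9.98 and 9.19 with the combination. Libraries with and without vorinostat did not overlap. The log2 fold change was 1.19 ± 0.19 with vorinostat (adjusted p = 0.0005) and 1.40 ± 0.19 with the combination (adjusted p = 0.00016).

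HOXB13, a posterior gene known from prostate development and cancer, had 3.02 and 3.41 CPM with vehicle, 1.32 and 1.88 with EC359, 8.13 and 8.08 with vorinostat, and 3.38 and 2.35 with the combination. Vorinostat alone stood above the other groups, EC359 alone stood below them, and the combination overlapped with vehicle. HOXB13 was called higher with vorinostat (log2 fold change 1.33 ± 0.24, adjusted p = 0.0011), and the combination did not pass the test against vehicle (-0.17 ± 0.26, adjusted p = 0.59). The vorinostat call was lost without vehicle library 1 (adjusted p = 0.015) or either vorinostat library (adjusted p = 0.012). HOXB9 had 0.425 and 0.0934 CPM with vehicle, 0.701 and 0.254 with EC359, 1.44 and 1.53 with vorinostat, and 0.972 and 1.17 with the combination. Both groups with vorinostat were above both groups without it. The log2 fold change was 2.50 ± 0.66 with vorinostat (adjusted p = 0.0086), a call lost without any 1 of the vehicle, vorinostat or combination libraries (adjusted p = 0.011 to 0.076). With the combination it was 2.03 ± 0.68 (adjusted p = 0.025), which passed the threshold without EC359 library 2 (2.02, adjusted p = 0.0095).

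At the posterior end of the HOXA cluster, neighbours moved in opposite directions. HOXA10 and HOXA11, which act in the uterus and limb, were lower with vorinostat, and HOXA13, the most posterior gene, was higher. HOXA10 had 2.12 and 2.15 CPM with vehicle, 5.48 and 4.06 with EC359, 0.103 and 0.383 with vorinostat, and 0.256 and 0.766 with the combination. HOXA11 had 3.82 and 3.78 CPM with vehicle, 1.90 and 4.11 with EC359, 0.720 and 0.638 with vorinostat, and 0.307 and 1.02 with the combination. HOXA13 had 0.850 and 1.35 CPM with vehicle, 0.536 and 0.203 with EC359, 3.81 and 5.27 with vorinostat, and 1.64 and 3.42 with the combination. In all 3 genes the libraries with vorinostat did not overlap with those without it.

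The log2 fold change of HOXA10 was -3.05 ± 0.57 with vorinostat (adjusted p = 0.0013) and -2.05 ± 0.52 with the combination (adjusted p = 0.0064). For HOXA11 it was -2.48 ± 0.52 (adjusted p = 0.0025) and -2.51 ± 0.53 (adjusted p = 0.0023). For HOXA13 it was 2.04 ± 0.46 (adjusted p = 0.0036) and 1.19 ± 0.47 (adjusted p = 0.048), so that only the vorinostat comparison was called. These calls rested on few counts, and several were lost with 1 library left out. The HOXA10 call with vorinostat was lost without vorinostat library 1 (log2 fold change -2.47, adjusted p = 0.013). Those of HOXA11 and HOXA13 with vorinostat were lost without any 1 vehicle or vorinostat library (adjusted p = 0.013 to 0.025 and 0.010 to 0.040). The combination calls of HOXA10 and HOXA11 were lost without either vehicle library or combination library 1 (adjusted p = 0.027 to 0.039 and 0.012 to 0.018).

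Promoter sequences are shown for HOXA10, HOXA11 and HOXA13, which lie next to each other and moved in opposite directions, and for HOXD8, the gene with the largest ratio. They came from the RefSeq promoter table for GRCh38.p14, which covers 250 bases before to 50 bases after a transcription start and holds 20 of the 39 HOX genes. Each matched GRCh37 at a single place, namely chr7:27219431-27219730 on the minus strand for HOXA10 (1 of its 2 windows), chr7:27224802-27225101 on the minus strand for HOXA11, chr7:27239661-27239960 on the minus strand for HOXA13, and chr2:176994183-176994482 on the plus strand for HOXD8. Sequences read 5′ to 3′ along the gene's strand, and capitals mark CpG dinucleotides.
HOXA10: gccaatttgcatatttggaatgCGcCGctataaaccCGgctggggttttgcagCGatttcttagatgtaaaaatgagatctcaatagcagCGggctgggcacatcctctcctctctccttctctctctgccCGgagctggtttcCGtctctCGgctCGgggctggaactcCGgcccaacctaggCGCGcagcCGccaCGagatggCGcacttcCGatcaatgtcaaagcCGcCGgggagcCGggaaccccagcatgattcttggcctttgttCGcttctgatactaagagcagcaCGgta
HOXA11: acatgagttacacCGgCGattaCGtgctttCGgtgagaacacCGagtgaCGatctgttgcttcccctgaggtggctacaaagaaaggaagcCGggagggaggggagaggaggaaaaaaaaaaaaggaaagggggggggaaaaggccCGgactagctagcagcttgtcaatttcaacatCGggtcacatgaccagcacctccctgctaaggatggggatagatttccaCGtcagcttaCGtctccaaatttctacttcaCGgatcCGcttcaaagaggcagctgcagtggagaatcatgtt
HOXA13: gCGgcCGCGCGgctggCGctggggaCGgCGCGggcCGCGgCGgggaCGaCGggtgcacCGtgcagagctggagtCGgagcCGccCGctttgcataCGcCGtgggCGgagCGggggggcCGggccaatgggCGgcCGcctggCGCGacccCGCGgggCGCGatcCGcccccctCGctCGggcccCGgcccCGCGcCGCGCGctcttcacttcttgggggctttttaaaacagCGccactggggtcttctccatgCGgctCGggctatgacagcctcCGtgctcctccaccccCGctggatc
HOXD8: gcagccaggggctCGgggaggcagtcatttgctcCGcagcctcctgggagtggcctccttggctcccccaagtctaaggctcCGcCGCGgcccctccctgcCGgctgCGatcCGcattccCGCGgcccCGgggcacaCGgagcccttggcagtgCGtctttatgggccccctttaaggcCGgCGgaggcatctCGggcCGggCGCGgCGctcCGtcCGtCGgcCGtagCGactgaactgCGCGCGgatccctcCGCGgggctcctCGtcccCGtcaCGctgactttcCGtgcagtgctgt

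The HOXA13 window held 44 CpG dinucleotides at 76.3% GC and the HOXD8 window 34 at 71.7% GC. Of the genes that were lower with vorinostat, the printed HOXA10 window held 21 at 56.7% GC, its other window 25 at 62.7% GC, and the HOXA11 window 13 at 51.3% GC. Over all 35116 promoters of the table the median was 14 CpG dinucleotides and 58.7% GC. The 27 windows of HOX genes held 0 to 44 CpG dinucleotides at 43.7% to 76.3% GC. Among them the HOXD1 window held 36 at 74.3% GC, and HOXD1 had at most 5 counts in any library. Whether CpG content goes with the direction of change was not tested. Motifs were searched on both strands, and no motif contains another. TATAAA was present in the HOXA10 window and in 11.5% of all promoters, and CCAAT in the HOXA10 and HOXA13 windows and in 34.6% of all. TGATTNAT, a form of the joint HOX and PBX site, was in none of the 4 windows and in 2.82% of all promoters. Promoters of the HOXB genes other than HOXB1 and of HOXC6, HOXC8, HOXC10 and HOXC13 are not in the table.

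The summed level over the clusters was lower with vorinostat than with vehicle, while that of the posterior genes was higher. All HOX genes together came to 142 and 129 CPM with vehicle, 165 and 125 with EC359, 77.9 and 79.9 with vorinostat, and 77.1 and 87.7 with the combination. The libraries with vorinostat were all below those without it. With 2 libraries against 2, no exact permutation test of a single value can reach a p of 0.05, so the sums are descriptions. Anterior genes summed to 35.5 ± 3.15 CPM (SD, n = 2) with vehicle, 7.29 ± 0.21 with vorinostat and 19 ± 0.77 with the combination. Central genes summed to 74.8 ± 5.14, 27.0 ± 0.72 and 26.6 ± 4.12 CPM in the same order. Posterior genes summed to 25.1 ± 0.69, 44.6 ± 0.53 and 36.8 ± 2.62 CPM. Posterior genes thus made up 18.5% of HOX CPM with vehicle, 14.7% with EC359, 56.5% with vorinostat and 44.7% in the combination group. A few genes carried these sums. Most of the anterior sum came from HOXB2 (mean 23.0 CPM with vehicle, 3.47 with vorinostat) and HOXB3 (11.9 and 1.85). HOXC10 rose most in CPM among posterior genes with vorinostat, from a mean of 4.46 to 17.1. Of the 10 tested posterior genes, 6 had a log2 fold change above 0 with vorinostat and 4 below 0.

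By cluster, HOXB summed to 66.0 ± 1.75 CPM with vehicle and 29.8 ± 1.95 with vorinostat, and HOXC to 60.8 ± 8.06 and 38.4 ± 1.33. HOXA, in which HOXA13 was higher and HOXA10 and HOXA11 were lower, summed to 8.40 ± 0.80 and 8.47 ± 1.07 CPM. HOXD summed to 0.164 ± 0.03 and 2.25 ± 0.24 CPM, most of the latter from HOXD8. These sums were not tested. In the HOXB cluster the log2 fold change with vorinostat was higher at higher paralog numbers (Spearman's rho 0.87, Pearson's r 0.78 over 9 genes of the same libraries). The values in HOXC were 0.57 and 0.61 over 8 genes, and over all 24 tested genes 0.31 and 0.28. With the combination against vehicle they were 0.63 and 0.50 in HOXB, 0.52 and 0.63 in HOXC, and 0.18 and 0.16 over all 24. HOXB8 and HOXB9, which were high at the posterior side, had 3 and 9 counts and 9 and 2 counts with vehicle. Both passed the filter through the groups with vorinostat. Genes of a cluster are not independent replicates, so no p is given.

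**Figure D4:**
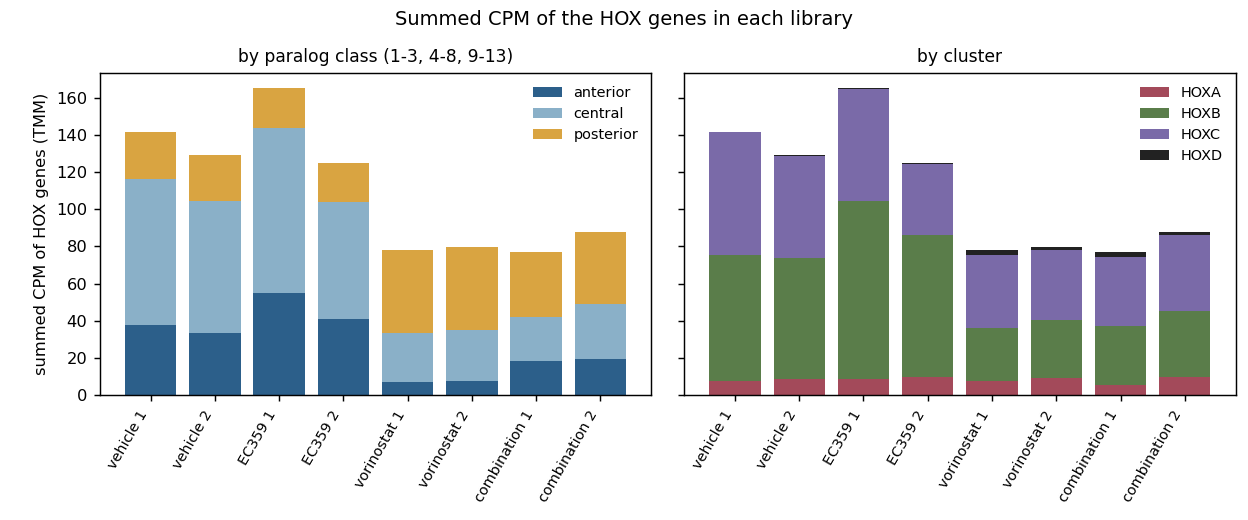
Summed CPM of the HOX genes in each of the 8 libraries, stacked by paralog class on the left and by cluster on the right. Posterior genes (top segment on the left) held 24.6 and 25.5 CPM with vehicle and 44.2 and 45 CPM with vorinostat, while the totals were 142 and 129 against 77.9 and 79.9 CPM.

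The combination against vehicle called 5 HOX genes higher and 8 lower, which is 20.8% and 33.3% of those tested, beside 19.5% and 15.3% of all genes. The higher share was close to that of all genes. The 5 higher genes (among them HOXB8, HOXC10, HOXC13 and HOXD8) and 6 of the lower genes (HOXA10, HOXA11, HOXB3, HOXB4, HOXC6 and HOXC8) were also called in the same direction with vorinostat alone. The comparisons share the vehicle libraries. HOXA13, HOXB2, HOXB9 and HOXB13 were called with vorinostat alone, and HOXB7 and HOXC4 with the combination alone (for HOXB7 this holds in edgeR with the filter, not in DESeq2), and of these 6 only HOXB2 and HOXB13 also passed the test of the combination directly against vorinostat. The median log2 fold change of the tested HOX genes was -0.47 with vorinostat and -0.83 with the combination, beside 0.03 and 0.07 over all genes. Without vehicle library 1 the combination called 7 HOX genes and vorinostat 9, and without vehicle library 2 the combination called 8. Without vorinostat library 1, vorinostat called 8.

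Direct comparison of the combination with vorinostat called 2 HOX genes of 24, 1 higher and 1 lower, beside 4.25% of all genes. HOXB2 was higher with the combination, at 12.6 and 13.2 CPM against 3.75 and 3.19 (log2 fold change 1.90 ± 0.21, adjusted p = 0.00031). HOXB13 was lower, at 3.38 and 2.35 CPM against 8.13 and 8.08 (-1.50 ± 0.25, adjusted p = 0.0028). The HOXB13 call was lost without any 1 of these 4 libraries (adjusted p = 0.011 to 0.029), and the HOXB2 call was kept. HOXB2 lies at the anterior end of its cluster and HOXB13 at the posterior end. For both, the value with the combination lay on the vehicle side of that with vorinostat. HOXB3 had a log2 fold change of 0.80 ± 0.32 in this comparison (adjusted p = 0.092).

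Whether EC359 acted differently in the presence of vorinostat was tested as an interaction. No HOX gene passed an adjusted p under 0.01 in edgeR's quasi-likelihood test, beside 2.1% of all genes, and 2 of 24 had an unadjusted p under 0.05, beside 22.4% of all genes. These were HOXB2, at a log2 difference of 1.44 ± 0.27 (adjusted p = 0.016), and HOXB4, at -0.88 ± 0.23 (adjusted p = 0.053). DESeq2 called HOXB2 (1.39, adjusted p = 0.0006). Without EC359 library 1, HOXB2 (1.69, adjusted p = 0.00023) and HOXC6 (1.16, adjusted p = 0.0052) passed, and without EC359 library 2, HOXB2 (1.22, adjusted p = 0.0017) and HOXB4 (-1.05, adjusted p = 0.003) passed. For HOXB13 the interaction was -0.48 ± 0.38 (adjusted p = 0.51).

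EC359 alone called 0 of 24 tested HOX genes in edgeR's quasi-likelihood test and 0 in DESeq2, and 6 (25%) had an unadjusted p under 0.05, beside 30.9% of all genes. HOXB4 was at 28.8 and 22.8 CPM against 15.4 and 17 with vehicle (log2 fold change 0.67 ± 0.15, adjusted p = 0.017). HOXB13 was at 1.32 and 1.88 CPM against 3.02 and 3.41 (-1.02 ± 0.28, adjusted p = 0.036). Neither pair of groups overlapped, which held for 12 of the 24 tested HOX genes, beside 53.4% of all genes tested. The other 4 were HOXA10 (1.16 ± 0.41), HOXA13 (-1.51 ± 0.60), HOXB2 (0.46 ± 0.18) and HOXC10 (-0.67 ± 0.22), with adjusted p between 0.078 and 0.12. All 8 tested HOXC genes had a log2 fold change below 0 and 6 of 9 HOXB genes above 0. Many of these changes were small, such as the -0.04 ± 0.20 of HOXC13. The EC359 and vehicle libraries did not overlap in 4 of the 8 HOXC genes and 6 of the 9 HOXB genes. The unadjusted p was under 0.05 in 1 and 3 of them. The EC359 libraries differed most from each other, with HOXC8 at 22.1 and 12.5 CPM. Without EC359 library 1, HOXC10 passed the test (-1.03, adjusted p = 0.0091), and without EC359 library 2, HOXB13 did (-1.27, adjusted p = 0.008).

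Adding vorinostat to EC359 called 6 HOX genes higher and 8 lower, or 25% and 33.3% of those tested, beside 19.8% and 13.9% of all genes. HOXA13 was higher here (log2 fold change 2.71 ± 0.55, adjusted p = 0.0019), as were HOXB8, HOXC10, HOXC13 and HOXD8 among others. The lower genes were HOXA10, HOXA11, HOXB2, HOXB3, HOXB4, HOXB7, HOXC6 and HOXC8. HOXC10 had the largest rise among genes over 1 CPM in every library, at 2.47 ± 0.21 (adjusted p = 9.2e-06), and HOXC8 the largest fall, at -3.19 ± 0.37 (adjusted p = 6e-05). The HOXA13 call was lost without combination library 2 (2.01, adjusted p = 0.021). That of HOXB7 (-1.17 ± 0.32, adjusted p = 0.0093) was lost without either vehicle library (adjusted p = 0.017) or combination library 1 (adjusted p = 0.065). HOXA11 (-2.15 ± 0.54, adjusted p = 0.0058) lost its call without either vehicle library (adjusted p = 0.012), EC359 library 2 (adjusted p = 0.018) or combination library 1 (adjusted p = 0.039). HOXB13 passed without EC359 library 2 (1.10, adjusted p = 0.0099).

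The 7 tested genes called in no comparison were HOXA5, HOXB5, HOXB6, HOXC5, HOXC9, HOXC11 and HOXD9. HOXC9, the most abundant of them, had 6.14 and 4.62 CPM with vehicle, 3.34 and 2.72 with vorinostat, and 3.07 and 2.96 with the combination, a log2 fold change of -0.83 in both comparisons (adjusted p = 0.015 and 0.014). HOXC5, which lies between HOXC4 and HOXC6, had 2.12 and 1.49 CPM with vehicle and 1.95 and 1.53 with vorinostat (-0.06 ± 0.36, adjusted p = 0.89). The other 5 had log2 fold changes between -0.82 and 2.10 with vorinostat.

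Of the 15 genes not tested, HOXA9, HOXD11 and HOXD12 had no count in any library. The others were HOXA2, HOXA3, HOXA4, HOXA6, HOXA7, HOXB1, HOXC12, HOXD1, HOXD3, HOXD4, HOXD10 and HOXD13, whose highest count in any library was 11 (HOXA7). The 0 of HOXA9 is not read as absence. In RefSeq the read-through gene HOXA10-HOXA9, which also had no count, spans the interval of HOXA9, and a read on 2 genes may be left unassigned by the counter. Its mode is not given in the sources used here, and 0.649% to 0.850% of reads were set aside as ambiguous. In the GENCODE annotation this read-through shares 13.1% of the exon bases of HOXA9 and 9.93% of those of HOXA10.

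Of the long noncoding RNAs of the clusters, 6 from a list of names were present in the files and 3 were tested. HOTAIR, transcribed within HOXC, had 1.27 and 1.59 CPM with vehicle, 0.536 and 1.17 with EC359, 0.463 and 0.468 with vorinostat, and 0.205 and 0.409 with the combination. Its log2 fold change passed the test with the combination (-2.20 ± 0.57, adjusted p = 0.0072) and missed it with vorinostat (-1.61 ± 0.53, adjusted p = 0.024). HOTTIP, transcribed away from HOXA13, was not tested and had 1 and 3 counts with vehicle, 0 and 0 with EC359, 11 and 6 with vorinostat, and 5 and 2 with the combination. Its promoter window shares 171 bases with that of HOXA13, and the exons overlap by 86 bases on opposite strands, so that without a stated strand setting reads there cannot be told apart. HOTAIRM1, transcribed within HOXA, had 1.46 and 1.40 CPM with vehicle and 1.08 and 1.79 with vorinostat (0.01 ± 0.41, adjusted p = 0.98).

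Of the genes for HOX cofactors, all 9 of which were tested, vorinostat called 5 lower, among them PBX2, PBX3, MEIS2 and PKNOX1, and 3 higher, namely PBX4, MEIS3 and PKNOX2. This was 55.6% and 33.3% of the list, beside 13.3% lower and 16.8% higher among all genes, with a median log2 fold change of -1.17 against 0.03 over all genes. MEIS2, which binds beside HOX proteins, had 31.5 and 27.8 CPM with vehicle, 24.2 and 21.0 with EC359, 5.30 and 5.74 with vorinostat, and 3.94 and 4.65 with the combination. All libraries with vorinostat were below 6 CPM. MEIS2 fell by 2.42 ± 0.16 on the log2 scale with vorinostat (adjusted p = 2.2e-06) and had a log2 fold change of -2.79 ± 0.16 with the combination (adjusted p = 8.6e-07). PBX2 went from 42.2 and 40.2 CPM with vehicle to 12.1 and 12.7 with vorinostat (-1.73 ± 0.14, adjusted p = 8e-06), and PBX3 from 67.8 and 67.2 to 22.5 and 21.0 (-1.64 ± 0.17, adjusted p = 3.5e-05). The groups did not overlap in either. With the combination 4 cofactor genes were lower (among them PBX2, PBX3 and MEIS2) and 3 higher (MEIS1, PBX4 and PKNOX2). This was 44.4% and 33.3% of the list, beside 15.3% and 19.5% of all genes. EC359 called none of the 9, beside 3.67% of all genes. PKNOX2 had 0 and 1 counts with vehicle and passed the filter through the groups in which it was high.

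**Figure D5:**
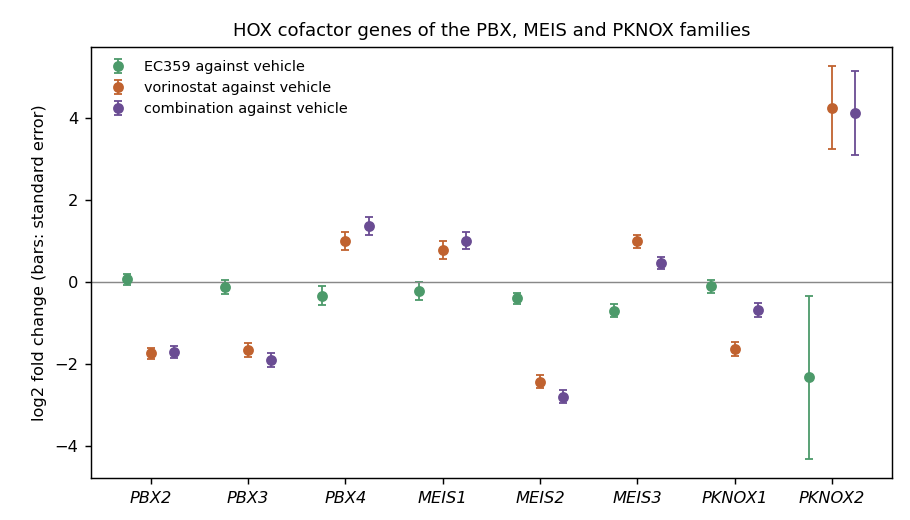
Log2 fold change against vehicle (points) with its standard error (bars) for 8 HOX cofactor genes, in the EC359, vorinostat and combination groups. PBX2, PBX3 and MEIS2 lay below 0 in both groups with vorinostat, and PKNOX2, which had at most 1 count in the vehicle libraries, has wide bars.

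With vorinostat against vehicle, genes of the complexes that silence or maintain HOX clusters were called at shares near or below those of all genes. Of 11 genes of Polycomb repressive complex 2, vorinostat called 2 higher (JARID2 and PHF1) and 2 lower (PHF19 and RBBP4), or 18.2% each way, beside 16.8% and 13.3% of all genes. PHF19, which helps to bring the complex to chromatin, had 144 and 156 CPM with vehicle, 93.3 and 120 with EC359, 9.77 and 10.5 with vorinostat, and 6.40 and 7.51 with the combination. The libraries with vorinostat were all below 11 CPM (log2 fold change -3.88 ± 0.15, adjusted p = 2.4e-07). JARID2 went from 74.5 and 68.1 CPM with vehicle to 157 and 170 with vorinostat and to 265 and 292 with the combination. RBBP4 fell by 1.21 ± 0.12 on the log2 scale with vorinostat (adjusted p = 2.8e-05). EZH2, the catalytic subunit, was not called in any comparison (log2 fold change -0.40 ± 0.11 with vorinostat, adjusted p = 0.0094, below the fold required).

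Of 17 genes of Polycomb repressive complex 1, vorinostat called CBX7 and PCGF5 higher and PCGF2 and SCMH1 lower, or 11.8% each way. CBX7 went from 8.26 and 8.22 CPM with vehicle to 24.0 and 23.5 with vorinostat (log2 fold change 1.53 ± 0.19, adjusted p = 9.6e-05), and SCMH1 from 43.5 and 39.4 to 7.46 and 8.84 (-2.34 ± 0.16, adjusted p = 3.2e-06). PCGF2 fell by 1.22 ± 0.18 on the log2 scale (adjusted p = 0.0003). A further list held 13 genes of the MLL complexes and of demethylases and another methyltransferase of H3 lysine that act on HOX clusters. Of these only MLL2 was called with vorinostat (-1.23 ± 0.18, adjusted p = 0.00027), or 7.69% lower and none higher. KDM6B, which encodes such a demethylase, was called higher with EC359 (1.06 ± 0.18, adjusted p = 0.0042) and with the combination (1.16 ± 0.18, adjusted p = 0.00037). With EC359 it was the only gene of this list called, or 7.69%, beside 3.67% of all genes. The combination against vehicle called 3 of the 13 higher and 1 lower, or 23.1% and 7.69%, beside 19.5% and 15.3% of all genes. Of the 17 genes of Polycomb repressive complex 1, EC359 called 1 higher, or 5.88%.

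Genes that flank the clusters were measured to describe the surroundings. Of 21 in the files 16 were tested, and vorinostat called 3 higher and 2 lower, or 18.8% and 12.5% of those tested, close to the 16.8% and 13.3% of all genes. SKAP2, which flanks the HOXA cluster, had 29.9 and 31.3 CPM with vehicle and 68.4 and 66.6 with vorinostat (log2 fold change 1.14 ± 0.11, adjusted p = 1.7e-05). CALCOCO1, on the HOXC13 side of its cluster, and CBX5, on the HOXC4 side, moved apart. CALCOCO1 went from 32.5 and 30.9 to 113 and 123 CPM (1.89 ± 0.14, adjusted p = 4.5e-06), and CBX5 from 267 and 267 to 113 and 114 CPM (-1.23 ± 0.10, adjusted p = 7.2e-06). TTLL6, near HOXB13, had 0 CPM in the 4 libraries without vorinostat and 1.44 and 2.00 CPM with it. With the combination SNX11 was added to the higher genes.

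Retinoic acid, which acts through RAR and RXR receptors, and CDX factors regulate HOX genes in the embryo. Of 17 such genes 9 were tested, and vorinostat called CRABP2 and RARB higher and none lower. This was 22.2% higher, beside 16.8% higher and 13.3% lower among all genes. The combination against vehicle called 2 higher and 3 lower, or 22.2% and 33.3%, beside 19.5% and 15.3% of all genes. CRABP2, a carrier of retinoic acid, had 1.04 and 0.747 CPM with vehicle, 1.15 and 0.761 with EC359, 10.3 and 10.7 with vorinostat, and 17.8 and 23.5 with the combination. Every library with vorinostat was above 10 CPM. Its log2 fold change was 3.55 ± 0.27 with vorinostat (adjusted p = 4.9e-06) and 4.52 ± 0.26 with the combination (adjusted p = 8.2e-07). CYP26B1, which degrades retinoic acid, was lower with EC359, at 0.289 and 0.254 CPM against 2.74 and 1.78 with vehicle (-3.02 ± 0.57, adjusted p = 0.0071). It was the only gene of the list called with EC359, or 11.1% of those tested, beside 3.67% of all genes.

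Homeobox genes outside the clusters were counted for comparison. Of 55 in the files 30 were tested, and vorinostat called 3 higher (DLX2, DLX4 and EMX1) and 7 lower (among them IRX3, NKX2-5, PITX1, PRRX1, SIX2 and SIX5). This was 10.0% and 23.3% of those tested, beside 16.8% and 13.3% of all genes, with a median log2 fold change of -0.23. PRRX1, a mesenchymal homeobox gene, had 144 and 128 CPM with vehicle, 193 and 127 with EC359, 4.17 and 3.40 with vorinostat, and 4.20 and 5.41 with the combination. No library with vorinostat reached 6 CPM (-5.17 ± 0.24, adjusted p = 4.2e-07). SIX5 fell by 1.97 ± 0.12 on the log2 scale (adjusted p = 1.8e-06), and DLX2 rose by 2.05 ± 0.17 (adjusted p = 8.6e-06).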

How the data were processed

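RNA was sequenced as 50 bp single reads from 8 BT-549 libraries. Per the labels and methods, the authors aligned reads to hg19 with TopHat2 2.0.8b and deposited raw counts per RefSeq gene from HTSeq, whose version, mode and strand setting are not given in the sources used here. From these counts, genes were filtered with filterByExpr (13694 of 23228 kept), normalized by TMM and fitted in all 8 libraries with edgeR 4.0.16 (R 4.3.3, quasi-likelihood test, Benjamini-Hochberg adjustment). The SE of a log2 fold change was obtained from its size and the root of its F statistic. Exon lengths for RPKM came from GENCODE on GRCh37, in which all 39 HOX symbols were found. The filter keeps low genes that are high in 1 group, and low counts widen the errors. Tested on simulated data, the procedure recovered 96.5% of 200 changed genes with 1 false call (vorinostat against vehicle, 13401 genes), and 94.5% with 2 false calls for the interaction. In this simulation every changed gene had a log2 change of size 2, and all genes shared 1 spread (dispersion 0.0135). These shares therefore do not give the recovery for HOX genes of low count, wider spread or smaller change.

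The members and the gene lists were chosen with earlier results of these data known. Some genes are not reported here by name but enter the counts and sums. Named were the HOX genes called in any comparison, noncoding neighbours, and up to 3 called genes a list with a mean log2 CPM of at least 3. EZH2, KDM6B, CYP26B1, TTLL6 and the HOX genes discussed without a call were named after their values were seen. Alternatives were RLE and total-count normalization, other filters, DESeq2 1.42.0, a replicate block, another threshold and each library left out. Figures were drawn with Python 3.11.15 and matplotlib 3.10.9.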

Additional observations from a re-analysis of the deposited data

How the results depend on the processing

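The 44 HOX calls (a gene in a comparison) were recomputed under each alternative. None changed direction, 27 were kept under every alternative that tested them and 17 were lost under at least 1. RLE normalization, total-count normalization, no filter and DESeq2 kept all 44. A filter of at least 10 counts in every library left 12 HOX genes to be tested and called 8 with vorinostat, 7 with the combination against vehicle and 7 with the combination against EC359. No share over all genes is given for this filter or the other alternatives, so these counts are descriptions. HOXB7 was among the 12 and lost its call in the combination against EC359 (adjusted p = 0.014), of which the cause was not tested. With an adjusted p under 0.05 and no fold threshold, EC359 called 2 HOX genes and the interaction 1. No filter and DESeq2 each gave 1 HOX gene with an interaction, HOXB2. With 1 library left out, where the lone library of a group is assumed to vary like the others, the counts ranged from 0 to 1 for EC359, 8 to 17 for vorinostat, 7 to 14 for the combination against vehicle, 1 to 2 for the combination against vorinostat, 12 to 14 for the combination against EC359 and 0 to 2 for the interaction.

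Same-numbered libraries did not deviate together (correlations of their deviations from -0.173 to 0.231 over 6 pairs of groups), so the numbers are not taken to pair them. With the replicate block, 14 HOX genes were called with vorinostat, 12 with the combination against vehicle, 2 with the combination against vorinostat, 14 with the combination against EC359, 0 with EC359 and 0 for the interaction. HOXB9 with vorinostat and HOXC4 with the combination were among the calls lost, and HOXB7 with vorinostat passed (adjusted p = 0.0048).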
